A study of Mus musculus with 6 samples.

Results

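Raver1, Raver2, Ptbp1, Ptbp2 and Ptbp3 were taken by gene symbol from the counts of lacrimal gland epithelium, 5 of 23420 listed genes. All 5 passed the filter on low counts that left 13087 genes for testing. Epithelium of the lacrimal gland bud had been cut out by laser at E14.5, giving 3 control and 3 Pea3 TKO samples, all on a mixed genetic background. Control embryos carried Le-Cre, a transgene that expresses Cre recombinase in the ocular surface ectoderm. Pea3 TKO embryos carried Le-cre together with Pea3-/-, Ermfl/fl and Er81fl/fl, so that Pea3 (Etv4) was missing from every cell while Erm (Etv5) and Er81 (Etv1) were deleted only where Cre had acted. By the paper's account of this sequencing, both groups thus carried the Cre transgene, although the labels call the controls WT. Its methods also list Le-Cre mice heterozygous for Pea3, Erm and Er81 as controls across the experiments. The labels do not say whether each sample came from a single embryo, and p-values measure only the spread between these samples.

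Ptbp proteins, also called polypyrimidine tract binding proteins, bind pyrimidine-rich stretches of pre-mRNA and mostly repress the exons beside them. Ptbp1 is the form of most dividing cells, Ptbp2 is the form typical of developing neurons, and Ptbp3 (Rod1) was first described in blood cells. Ptbp1 lowers Ptbp2 by causing an exon of its transcript to be skipped, which sends that transcript to nonsense-mediated decay. Raver1 and Raver2 are RNA-binding proteins that attach to Ptbp proteins through short leucine-rich motifs and act as co-repressors. Raver1 also binds the adhesion proteins vinculin and alpha-actinin, while Raver2 is the less widely expressed of the pair.

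The set was chosen by the large decrease of Raver2 between these same groups, and the other members joined it as its relatives and partners. Levels of all 5 genes, with their errors, and whether each was called in the comparison of all genes are therefore a description, with no p-value and nothing supported by them. By the edgeR quasi-likelihood test with an adjusted p threshold of 0.05, 2 members were called lower in Pea3 TKO (Raver2 and Ptbp2), 1 was called higher (Ptbp3) and 2 were not called (Raver1 and Ptbp1). Over all genes tested, 25.0% were called, 13.6% as higher and 11.3% as lower. The same 3 members were those whose groups did not overlap, which held for 43.9% of all genes tested, 21.3% with lower and 22.5% with higher values in Pea3 TKO. Nothing is read from these counts, since the choice of members used this contrast. The background itself moved with the samples, from 3268 genes called to 1963 without control replicate 2, 1948 without control replicate 3 and 2072 without Pea3 TKO replicate 2.

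**Figure D1:**
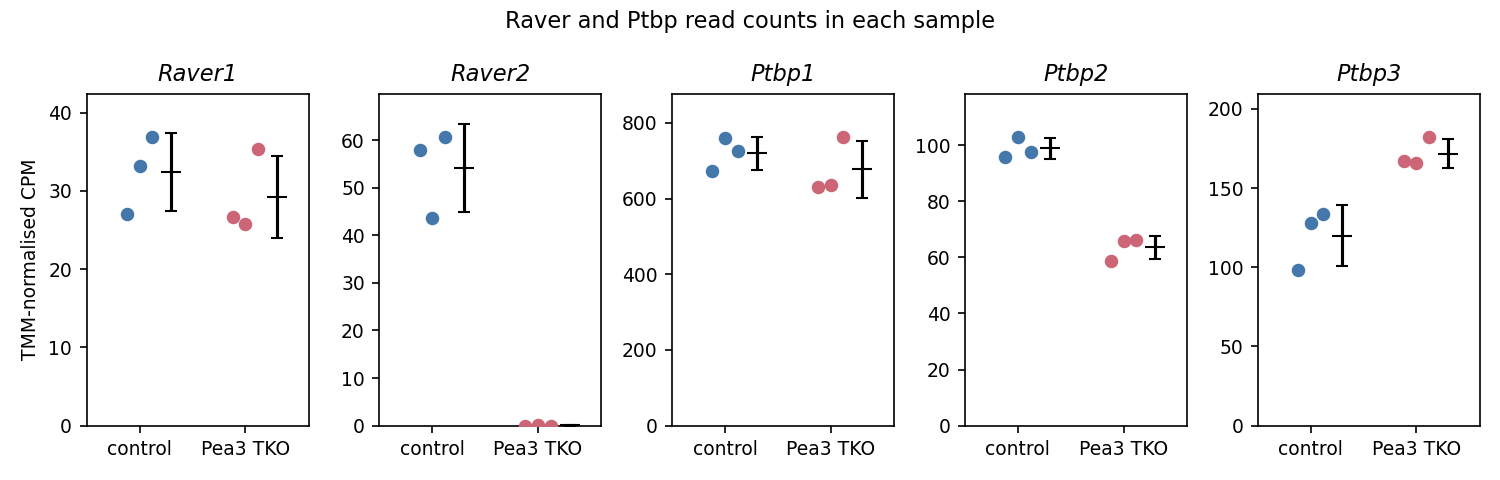
Level of each Raver and Ptbp gene (y axis, TMM-normalised CPM, starting at 0 and scaled to each gene) in the 3 control and 3 Pea3 TKO samples, 1 point per sample, with the mean ± SD beside them. Raver2 lay between 43.6 and 60.7 in controls and at or near 0 in Pea3 TKO, Ptbp2 was lower and Ptbp3 higher in every Pea3 TKO sample, and Raver1 and Ptbp1 overlapped between the groups.

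Raver2 (ENSMUSG00000035275.14) spans 83.4 kb on the plus strand of GRCm38, chr4:101068983-101152370. Its reads numbered 1029, 699 and 934 in control replicates 1, 2 and 3, and 0, 3 and 0 in Pea3 TKO replicates 1, 2 and 3. As counts per 1e+06 reads (CPM, scaled by TMM factors) these were 58.0, 43.6 and 60.7 in controls against 0, 0.21 and 0. Every control sample was thus well above the detection floor of 3 reads, which lay between 0.17 and 0.21 CPM, and no Pea3 TKO sample exceeded it. In all, 3 reads were counted in Pea3 TKO and 2662 in controls. The level in Pea3 TKO was 0.12% of that in controls, with an exact 95% interval from 0.024% to 0.34%, or 850-fold lower (290 to 4122). That interval covers counting error only. The log2 fold change of the model was -9.56 with a standard error of 0.53, and with a larger prior count it was -8.16, so the model value of a gene this close to 0 depends on that setting.

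Raver1 (ENSMUSG00000010205.11) is the other gene of the pair, on the minus strand at chr9:21074158-21092008. It had 27.1, 33.2 and 36.9 CPM in controls and 26.7, 25.7 and 35.3 in Pea3 TKO. Its groups overlapped, and the log2 fold change was -0.15 with a standard error of 0.20. Adding summed Y-linked expression to the model as a covariate turned that value to 0.13. This sum was low only in Pea3 TKO replicates 1 and 2, so with it the genotype effect rested mainly on replicate 3 against controls. Per kilobase of exon, the scale on which genes can be compared with each other, Raver1 and Raver2 stood close together in controls, with 9.33 ± 1.44 and 8.53 ± 1.46 CPM per kb (mean ± SD, n = 3) and overlapping ranges. Raver2 made up 54.0%, 41.8% and 47.4% of the Raver reads per kilobase in control replicates 1, 2 and 3, and at most 0.444% in a Pea3 TKO sample. The summed Raver level went from 17.9 ± 2.06 to 8.44 ± 1.50 CPM per kb (n = 3 each). By this measure control buds carried both Raver transcripts in similar amounts, and Pea3 TKO buds carried almost only that of Raver1. The similarity depends on the length used, all annotated exon, at 3.47 kb for Raver1 and 6.34 kb for Raver2. Without that division the control means were 32.4 and 54.1 CPM, and which isoforms were expressed was not examined.

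The promoters of the pair are shown because their genes differed so widely in Pea3 TKO. Sequences are those of RefSeq on GRCm38.p6, 5′ to 3′ on the strand of the gene, up to the first base that either RefSeq or GENCODE places in the transcript. Capitals mark GGAA, the core of sites bound by ETS proteins such as the Pea3 factors, or its reverse complement TTCC. The stretches lie at chr4:101068788-101068982 for Raver2 and at chr9:21092009-21092249 for Raver1.
Raver2: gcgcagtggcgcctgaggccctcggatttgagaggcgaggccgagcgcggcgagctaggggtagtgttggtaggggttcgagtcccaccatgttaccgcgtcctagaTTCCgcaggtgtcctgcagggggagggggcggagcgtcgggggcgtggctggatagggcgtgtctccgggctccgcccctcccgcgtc
Raver1: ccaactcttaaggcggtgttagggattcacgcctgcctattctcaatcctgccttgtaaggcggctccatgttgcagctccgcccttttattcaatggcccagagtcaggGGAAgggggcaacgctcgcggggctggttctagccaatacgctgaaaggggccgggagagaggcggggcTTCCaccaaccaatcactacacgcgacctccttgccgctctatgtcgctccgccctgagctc

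In the 250 bases before the RefSeq start, searched on both strands, Raver2 held 1 match to GGAA and Raver1 held 2. The table of promoters gave Ptbp1 1 match and Ptbp2 2, and matched 4 of the 5 members. Of 32851 RefSeq promoters, 93.4% held at least 1 match, with a median of 3, so these counts were all below the median. The longer motif CCGGAAG, which contains GGAA, was found in none of the 4 and in 6.91% of all promoters. The Raver2 window was rich in G and C, at 74.0% against a median of 52.4%, and 4.58% of promoters had a higher share. Ptbp2 came close to it at 72.4%, and Raver1 at 60.4% and Ptbp1 at 57.6% were also above that median. A match describes letters only, and its absence from this window says nothing about binding elsewhere.

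No tested gene beside Raver2 lost its reads in Pea3 TKO as Raver2 did. Jak1, a kinase of cytokine receptors, meets Raver2 end to end at chr4:101152367-101265282 and had 214.7, 201.1 and 212.2 CPM in controls against 191.6, 215.0 and 204.6 in Pea3 TKO (log2 fold change -0.04, standard error 0.11, adjusted p = 0.822 by the edgeR quasi-likelihood test). Cachd1, which modulates calcium channels, lies 39.8 kb before Raver2 and rose from 45.3 ± 10.7 to 88.1 ± 21.1 CPM (n = 3 each, adjusted p = 0.0126), a call lost without Pea3 TKO replicate 2 and with the covariate for Y-linked expression. Ak4, a mitochondrial adenylate kinase 266.9 kb beyond Raver2, fell from 48.5 ± 8.24 to 26.1 ± 5.28 CPM (n = 3 each, adjusted p = 0.0112), a call also lost with that covariate. Ror1, a receptor of Wnt5a 624.2 kb before Raver2, fell from 47.4 ± 8.36 to 17.3 ± 0.906 (adjusted p = 0.000682). Dnajc6 was not called and Ube2u had too few reads to test. Of the 5 neighbours tested, 3 were called, and the lowest log2 fold change among them was -1.45, for Ror1. Around the other members, 2 of 18 neighbours tested were called, Tyk2 beside Raver1 and Hsdl2 beside Ptbp3, both higher. Over all members, 5 of 23 neighbours tested were called, and over all genes tested 25.0% were. The genes beside Raver2 are few, and nothing is read from their count.

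**Figure D2:**
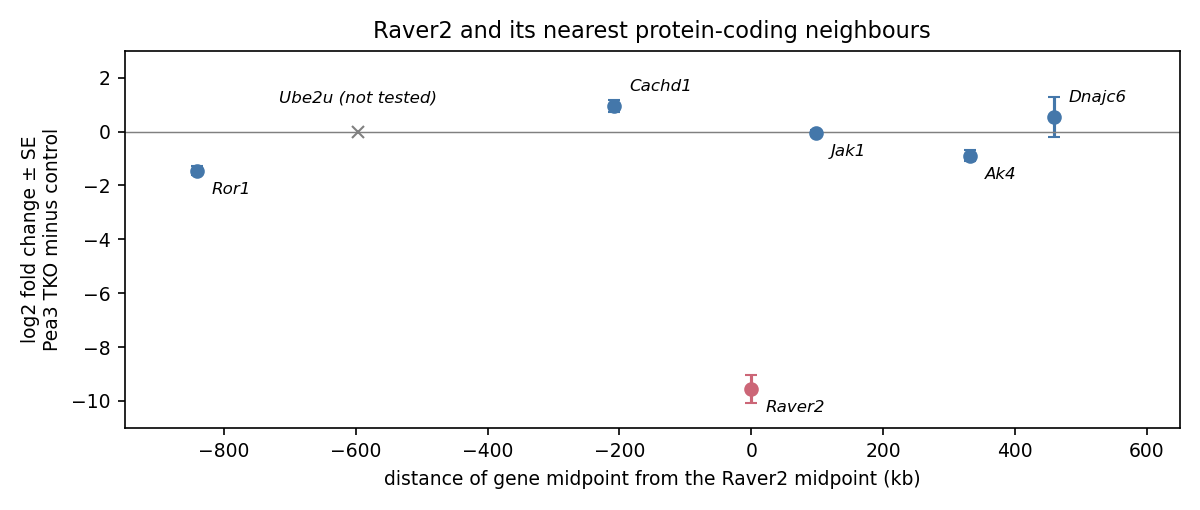
Log2 fold change of Raver2 and the nearest protein-coding genes on each side (y axis, Pea3 TKO minus control, ± standard error) against the distance of each gene's midpoint from that of Raver2 (x axis, kb). Raver2 stands at -9.56, whereas its tested neighbours lie between -1.45 and 0.96.

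Ptbp1 (ENSMUSG00000006498.16), on the plus strand at chr10:79854427-79864771, had the highest level of the members. Part of it overlaps Plppr3, and reads there may not be told apart. The span of each other member also overlaps annotated genes, and whether reads were shared there was not examined. It had 674.1, 761.1 and 725.2 CPM in controls and 630.7, 636.9 and 763.1 in Pea3 TKO. The groups overlapped and the log2 fold change was -0.09 with a standard error of 0.12, which became 0.08 with the covariate for Y-linked expression.

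Ptbp2 (ENSMUSG00000028134.11), on the minus strand at chr3:119718742-119784466, had 95.9, 103.0 and 97.7 CPM in controls and 58.7, 65.9 and 66.1 in Pea3 TKO. Its highest Pea3 TKO sample was below its lowest control, and the log2 fold change of -0.64 (standard error 0.12) put the level at 64.3% of control. Its call was lost with the covariate for Y-linked expression, at a log2 fold change of -0.59.

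Ptbp3 (ENSMUSG00000028382.15), on the minus strand at chr4:59471868-59549364, moved the other way. It had 98.3, 127.7 and 133.9 CPM in controls and 167.1, 165.7 and 182.3 in Pea3 TKO. The groups did not overlap, and the log2 fold change of 0.52 (standard error 0.14) put the level at 1.43-fold that of control. Its call was lost without control replicate 2 (log2 fold change 0.56), Pea3 TKO replicate 2 (0.54) or Pea3 TKO replicate 3 (0.47), and with the covariate for Y-linked expression (0.60).

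Within the Ptbp family, Ptbp1 held 85.0% ± 0.747 of the reads per kilobase in controls and 82.6% ± 0.837 in Pea3 TKO (mean ± SD, n = 3 each). The share of Ptbp2 was 6.31%, 5.94% and 5.87% in control replicates 1, 2 and 3 and 3.96%, 4.39% and 3.74% in Pea3 TKO. The share of Ptbp3 was 7.93%, 9.04% and 9.86% in controls and 13.8%, 13.5% and 12.7% in Pea3 TKO. Ptbp2 thus stood at 0.595 to 0.796 of the Ptbp3 level per kilobase in controls and at 0.287 to 0.324 in Pea3 TKO, with no overlap. The summed Ptbp level overlapped between the groups, at 178.7 ± 11.8 CPM per kb in controls and 172.7 ± 17.2 in Pea3 TKO. The share of Ptbp1 did not overlap either, at 84.3% to 85.8% in controls and 82.1% to 83.6% in Pea3 TKO. Ptbp1, Ptbp2 and Ptbp3 thus each took a different part of a total whose ranges overlapped.

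**Figure D3:**
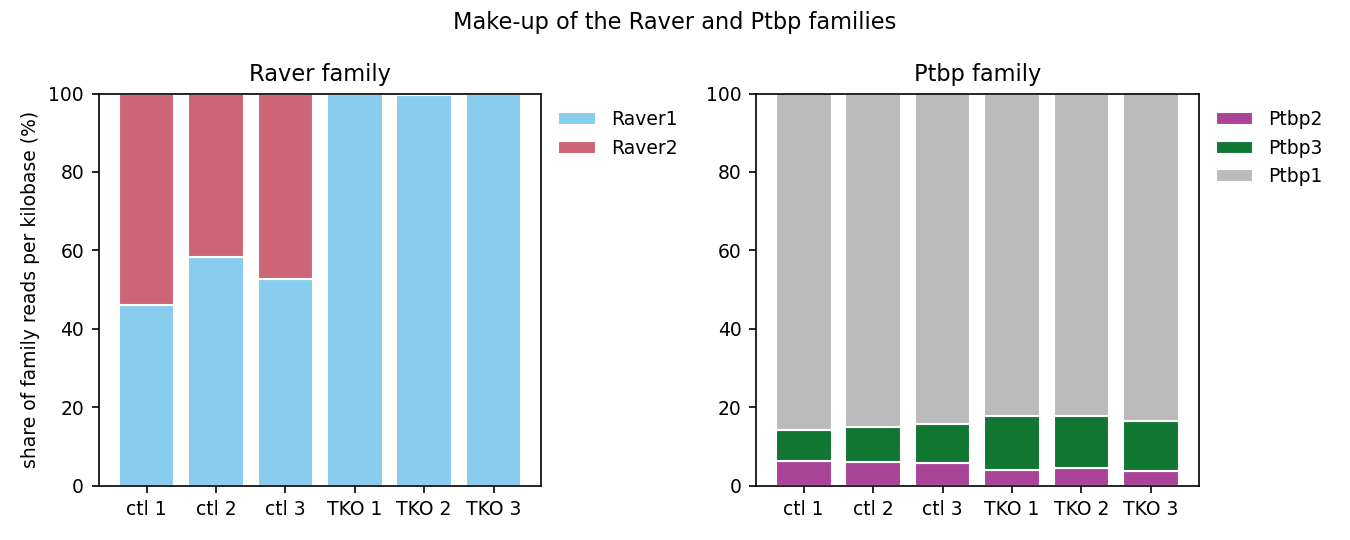
Share of each gene in the reads per kilobase of its family (y axis, %, stacked to the whole) for each control (ctl) and Pea3 TKO (TKO) sample. Raver2 fills 41.8% to 54.0% of the Raver bar in controls and at most 0.444% in Pea3 TKO, and the Ptbp bars hold 82.1% or more Ptbp1, less Ptbp2 and more Ptbp3 in Pea3 TKO.

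Ordered by level per kilobase in controls, Ptbp1 came first at 151.9 ± 9.22 CPM per kb, then Ptbp3 at 16.0 ± 2.54, Ptbp2 at 10.8 ± 0.40, Raver1 at 9.33 ± 1.44 and Raver2 at 8.53 ± 1.46 (n = 3 each). The ranges of Ptbp2 and Raver1 overlapped, as did those of Raver1 and Raver2. In Pea3 TKO the order was Ptbp1 at 142.8 ± 15.8, Ptbp3 at 23.0 ± 1.23, Raver1 at 8.43 ± 1.52, Ptbp2 at 6.93 ± 0.455 and Raver2 at 0.011 ± 0.0191. Neighbours in that order did not overlap, with Raver1 at 7.42 or more and Ptbp2 at 7.2 or less. Raver1 and Ptbp2 had exchanged places on this scale only. It divides by all annotated exon, 3.47 kb for Raver1 and 9.18 kb for Ptbp2. Without that division Ptbp2 stood above Raver1 in both groups, at 98.9 against 32.4 CPM in controls and 63.6 against 29.3 in Pea3 TKO.

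Some features of the libraries moved alongside the genotype. Targeted Etv1, Etv4 and Etv5 were each called lower, with log2 fold changes from -2.95 to -1.74. Total counts ran from 14194775 to 17860140 per sample. Epithelial markers were present in all samples, with Cdh1, Krt8, Krt18, Pax6, Epcam and Trp63 summing to 2879.2 to 3518.5 CPM in controls and 5090.3 to 5766.5 in Pea3 TKO, where 4 of the 6 were called higher. Summed Y-linked expression was 135.7 to 174.7 CPM in controls, 0.445 and 0.21 in Pea3 TKO replicates 1 and 2, and 139.0 in Pea3 TKO replicate 3. Mesenchymal markers, all 6 of them detected, summed to between 13.2 and 100.1 CPM in controls, to 269.1 and 404.8 in Pea3 TKO replicates 1 and 2, and to 6.99 in Pea3 TKO replicate 3. That last sample was within the control range for the Y-linked sum and below it for the mesenchymal sum, and in it Raver2 had 0 reads, Ptbp2 66.1 CPM and Ptbp3 182.3 CPM. The part of these features in the levels of the members was not tested. Markers of neurons, where Ptbp2 is typical, summed to 16.4 to 24.1 CPM in controls and 14.2 to 28.0 in Pea3 TKO, and came mostly from Map2. Blood, endothelial and skeletal muscle markers summed to at most 11.6, 7.76 and 3.70 CPM in any sample, with Hba-a1 and Emcn at 0 throughout. In bulk samples, fewer cells of a type and less RNA per cell cannot be told apart.

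Of 9 known partners of the Raver and Ptbp proteins listed, 8 were tested, 1 was called higher and none lower, a share of 12.5% against 25.0% over all genes, and the median log2 fold change was 0.28 against 0.01 over all genes. Ifih1, an RNA sensor for which Raver1 acts as a co-factor, rose from 0.422 ± 0.437 to 4.38 ± 1.76 CPM (n = 3 each, log2 fold change 3.35, standard error 0.98, adjusted p = 0.0329), though it stayed a rare transcript. No partner was called without control replicate 1, without any of Pea3 TKO replicates 1, 2 and 3, or with the Y-linked covariate. Vcl, which encodes vinculin, was at 170.5 ± 27.2 CPM in controls and 229.7 ± 26.7 in Pea3 TKO (adjusted p = 0.056), and Actn1, an alpha-actinin, was at 23.4 ± 1.14 and 31.7 ± 6.85 (adjusted p = 0.136), in neither case with overlap. Matr3, which binds Ptbp1 through the same kind of motif as the Raver proteins, was at 441.7 ± 24.5 and 376.1 ± 37.2 (adjusted p = 0.173).

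Transcripts with exons under Ptbp control were examined by their total level, since reads were counted per gene and exon usage cannot be seen. Of 17 listed, 14 were tested, 4 were called higher and 1 lower, with a median log2 fold change of 0.44. The shares were 28.6% higher and 7.14% lower, against 13.6% and 11.3% over all genes. Tpm1, a tropomyosin whose smooth muscle exon choice depends on Ptbp1, rose from 615.6 ± 82.1 to 1168.8 ± 137.6 CPM (n = 3 each, adjusted p = 0.00158, log2 fold change 0.93, standard error 0.14). Fas, a death receptor, rose from 26.7 ± 6.48 to 56.7 ± 12.8 (adjusted p = 0.00835), a call lost with the Y-linked covariate. Fgfr1 was the member that fell, by 2.07 on the log2 scale, while Fgfr2, the main FGF receptor of this epithelium, was called higher at a log2 fold change of 0.54 with overlapping groups, a call lost without any 1 of the samples other than Pea3 TKO replicate 3, and with the Y-linked covariate, which left a log2 fold change of 0.07. Fgfr2 and the following pair were singled out after their values were seen. Dlg4, which Ptbp proteins silence outside neurons, stayed rare at 2.15 ± 0.274 and 2.21 ± 0.518 CPM and was not called. Pkm, a glycolytic enzyme with Ptbp1-dependent exons, was at 2171.5 ± 230.9 and 1909.7 ± 240.7 CPM and was not called.

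General splicing factors were counted in the same way, against 11.3% called lower and 13.6% called higher over all genes. Of 23 hnRNP and PCBP genes tested, 4 were called lower (17.4%) and none higher, with a median log2 fold change of -0.26. These were Hnrnpf, Syncrip, Pcbp4 and Hnrnpd, all RNA-binding proteins, with log2 fold changes from -0.53 to -0.41 and adjusted p from 0.0213 to 0.0498. The count moved with single samples, at 3 without control replicate 1 and 0 without control replicate 2 or 3. It was 1 without Pea3 TKO replicate 1 or 2, and 8 without Pea3 TKO replicate 3. Calls over all genes moved too, from 3268 to 3344, 1963 and 1948 without control replicates 1, 2 and 3. Without Pea3 TKO replicates 1, 2 and 3 they numbered 2267, 2072 and 3003. With the Y-linked covariate no hnRNP, PCBP, SR or 3′ splice site gene was called. All 13 genes listed as SR proteins, many of which promote exon inclusion, had a log2 fold change below 0, with a median of -0.43. Of these, 3 were called (23.1%): Srsf11, Srsf4 and Srsf6, each at -0.53 to -0.50. Without Pea3 TKO replicate 3 the SR count was 5, and without control replicate 3 it was 2.

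Of 14 genes that recognise the 3′ splice site, where Ptbp proteins compete for the pyrimidine tract, 4 were called lower (U2af1, Sf3b4, Sf3a3 and Sf3b1) and none higher. That share was 28.6%, against 11.3% called lower over all genes, and the median log2 fold change was -0.25. U2af1, the small subunit of U2AF, went from 169.6 ± 15.3 to 115.6 ± 13.7 CPM (n = 3 each, adjusted p = 0.0131). This count fell to 0 without control replicate 2, to 1 without Pea3 TKO replicate 1 or 2, and to 2 without control replicate 1 or 3. Among 10 nonsense-mediated decay factors, which also govern Ptbp transcripts, 2 were called lower (20%, against 11.3% over all genes) and none higher. Upf1, the helicase at the centre of that pathway, fell by 0.98 on the log2 scale (standard error 0.21, adjusted p = 0.00944) and Smg9 by 0.69 (standard error 0.20, adjusted p = 0.0294). The call of Smg9 was kept without control replicate 3 and lost without any other single sample and with the Y-linked covariate. The list count was 1 without control replicate 1 or 2 or Pea3 TKO replicate 2 or 3.

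The list of tissue-restricted splicing regulators also holds abundant relatives such as Elavl1, Celf1 and Khdrbs1, at 445.5, 276.3 and 297.1 CPM in controls. Its genes moved in both directions. Of 28 listed, 20 were tested, 4 were called higher and 5 lower, with a median log2 fold change of -0.13. The shares were 20% higher and 25% lower, against 13.6% and 11.3% over all genes. Esrp2, an epithelial splicing regulator, rose from 51.5 ± 14.8 to 187.7 ± 35.6 CPM (n = 3 each, log2 fold change 1.86, standard error 0.21, adjusted p = 0.000452), and its relative Esrp1 was called higher at 0.48. Srrm4, a neuronal factor that opposes Ptbp repression, rose from 0.173 ± 0.202 to 4.36 ± 3.04 CPM (adjusted p = 0.0119), a call lost without Pea3 TKO replicate 1 and with the Y-linked covariate. Elavl2, another neuronal RNA-binding protein, had a log2 fold change of 2.08 (adjusted p = 0.0146), a call lost without control replicate 3 and without Pea3 TKO replicate 3. Mbnl3, a muscleblind protein, fell from 88.2 ± 11.8 to 51.8 ± 6.75 CPM (adjusted p = 0.00682), a call lost with the Y-linked covariate. Esrp1 was named after its value was seen, as were Elavl1, Qk, Celf1 and Khdrbs1, which made up the rest of the lower calls, with log2 fold changes from -0.55 to -0.36. The number called in this list was 4 without control replicate 2 or Pea3 TKO replicate 1 and 3 without control replicate 3.

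**Figure D4:**
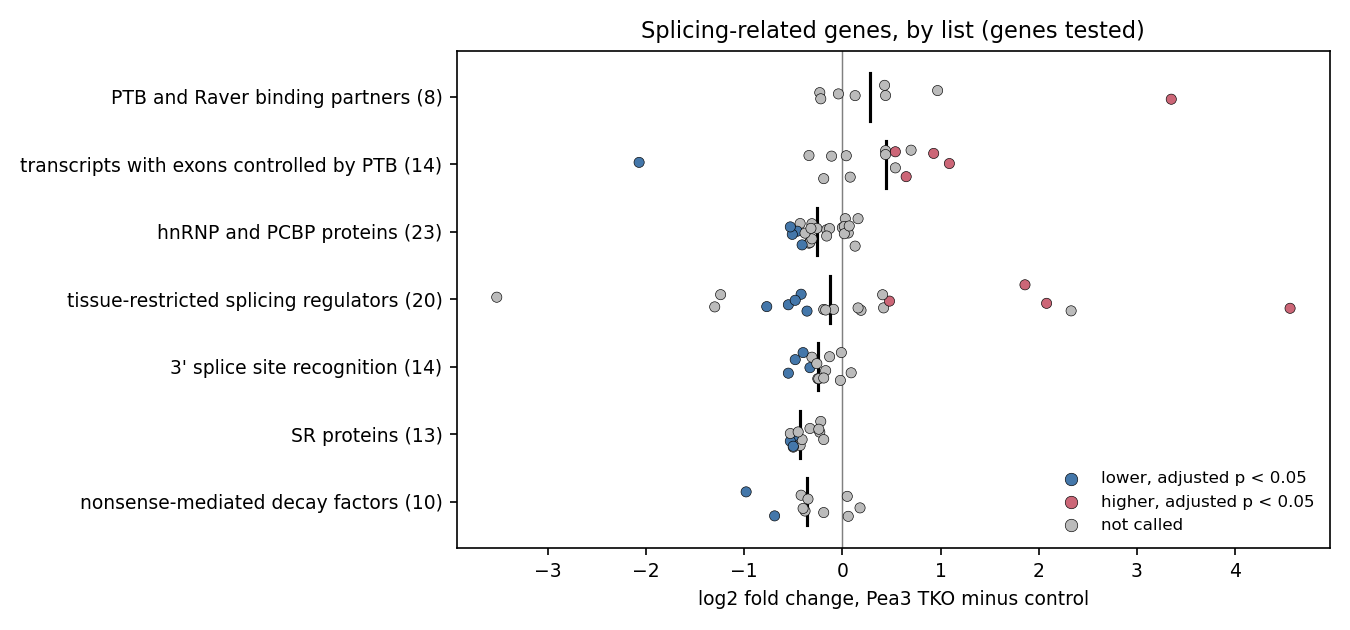
Log2 fold change (x axis, Pea3 TKO minus control) of each tested gene in the 7 splicing-related lists, 1 point per gene, with the number tested in brackets and a bar at the median of the list. Points are coloured where the adjusted p was under 0.05, and every called hnRNP, 3′ splice site, SR and decay gene lies below 0.

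Genes with a pattern most like that of Raver2 were sought among those with at least 10 CPM in controls, by Pearson r of log2(CPM + 1) over the 6 samples. The closest were Tes at 0.9993, Col9a1 at 0.9988, Slc29a4 at 0.9987, Gm5506 at 0.9980 and Tmem59l at 0.9980. These values mostly follow the difference between the groups, which all 5 share with Raver2, and differ widely in size. Tes, an actin-associated LIM protein, had 265.2, 253.6 and 272.7 CPM in controls and 129.8, 139.3 and 133.4 in Pea3 TKO, whereas Col9a1, a cartilage-type collagen chain, went from 706.6, 730.8 and 838.4 to 5.72, 7.41 and 6.52. By the same measure Ptbp2 was closest to Rcbtb2, Pcp4l1 and Rbmxl1, Ptbp3 to Sppl3, Cox7a2l and Agpat1, Ptbp1 to Rpl6, Hk2 and Tst, and Raver1 to Lgr4, Mier1 and Serinc1, with r of at least 0.9796.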

How the data were processed

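The authors deposited 1 table of raw counts per sample, giving reads per gene symbol without normalization. The submitters' processing notes name bcl2fastq 2.17, STAR 2.5.2b, featureCounts 1.5.0-p3 and DESeq with the mm10 build; annotation and strand setting are not given in the sources used here. Genes were kept by filterByExpr of edgeR 4.0.16 (R 4.3.3), normalized by TMM and tested with its quasi-likelihood test in a model of genotype alone, with Benjamini-Hochberg adjustment over all 13087 genes. The unit CPM is per 1e+06 reads. Exonic lengths and positions are from GENCODE M21 (GRCm38, the same build as mm10), and promoters from RefSeq. Members and lists were chosen with earlier results of these data known. Named genes were the members, the targeted genes, the neighbours of Raver2, up to 4 genes with the smallest p per list, and the genes most like each member. DESeq2 1.42.0, other size factors and filters, a replicate block, a Y-linked covariate and leaving out each sample were the alternatives. The test was checked on simulated counts. Protein sequences were not used here. The values of 1 listed gene are not reported here.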

Additional observations from a re-analysis of the deposited data

How the results depend on the processing

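With depths of 14194775 to 17860140 counts, a gene under about 0.21 CPM could not be told from 0. Over 17 results and 14 alternatives, 172 values stayed close to the reported one and 54 moved. Close meant within a fixed ratio for counts and within the SD between samples for log2 fold changes. A change from 3 members called to 2 thus passed as close, although a call was lost. No called value changed sign, but Raver1 and Ptbp1, neither of them called, did so with the covariate for Y-linked expression. The model value for Raver2 was -11.72 with the covariate for Y-linked expression and -8.16 with a prior count of 2, and ran from -12.79 to -8.97 when 1 sample was left out, lowest without the sole Pea3 TKO sample that held reads. Leaving out 1 sample gave log2 fold changes of -0.30 to -0.04 for Raver1, -0.19 to -0.04 for Ptbp1, -0.67 to -0.58 for Ptbp2 and 0.39 to 0.60 for Ptbp3. Members called numbered 2 to 3.

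The covariate for Y-linked expression moved most results. Its sum was 135.7 to 174.7 CPM in controls and 139.0 in Pea3 TKO replicate 3, against 0.445 and 0.21 in replicates 1 and 2. With it the genotype effect therefore rested mainly on Pea3 TKO replicate 3 against the controls. A call lost in that fit thus does not show that a difference was absent. With it, Raver1 stood at 0.13 and Ptbp1 at 0.08, and 1 member, 778 genes in all, 492 higher and 286 lower were called. With it the lists held 0 called genes for binding partners, 3 for Ptbp-controlled transcripts, 0 for hnRNP and PCBP genes, 2 for tissue-restricted regulators, 0 for 3′ splice site factors, 0 for SR proteins, 1 for decay factors and 1 for neighbours. Whether anything else contributed to these shifts was not tested.

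DESeq2 called 2 binding partners and 7 SR genes. Upper quartile scaling called 2 binding partners and 2 genes of 3′ splice site recognition, and the fit without a low-count filter also called 2 of the latter. Leaving out 1 sample gave 1948 to 3344 genes called, 1131 to 1948 higher and 799 to 1417 lower. By list it gave 0 to 1 binding partners, 4 to 5 Ptbp-controlled transcripts, 0 to 8 hnRNP and PCBP genes, 3 to 10 tissue-restricted regulators, 0 to 4 genes of 3′ splice site recognition, 2 to 5 SR genes, 1 to 2 decay factors and 4 to 5 neighbours.

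Replicates carry the numbers 1 to 3 in each genotype. Deviations from the group means of same-numbered samples correlated at 0.144, -0.064 and 0.0454. With 3 samples per group, such values cannot settle whether the numbers pair the samples. Under a replicate block, 3191 genes and the same 3 members were called, with log2 fold changes of -9.55 for Raver2, -0.64 for Ptbp2 and 0.53 for Ptbp3. The call of Ifih1 was lost there (log2 fold change 3.68).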

Other observations

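A search made after the values of Raver2 were seen, with a limit equal to its own count, looked for genes with a mean of at least 10 CPM in one group and at most 3 reads summed over the other. It found 4 genes at or under that limit in Pea3 TKO, Raver2 and 3 of the 9458 other tested genes with at least 10 CPM in controls, and 6 at or under it in controls. The first group held Raver2 on chromosome 4, Dynlt1b on chromosome 17, Sorcs1 on chromosome 19 and Fam20a on chromosome 11. Raver2 was the most abundant of these in controls, at 54.1 ± 9.23 CPM (n = 3), against 19.5 ± 8.49 for Dynlt1b, a value left uncertain by near-identical copies of that gene, 18.7 ± 10.5 for Sorcs1 and 10.1 ± 3.14 for Fam20a. The second group held Rgs4, Serpina3g, Gm8801, Slc52a3, Tnc and Flt1.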
